A study of Mus musculus with 2 samples.

Results

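Mir205 and Mir203 are microRNA (miRNA) genes of stratified epithelium, the layered lining of skin, oesophagus and similar surfaces. They were chosen by gene symbol, 2 genes of the 1973 miRNA gene identifiers counted in the thymus of newborn mice, and both were detected. The data come from small RNA sequencing (under 30 nucleotides, per the labels) of total RNA from whole thymus of the strain B6NCrl on postnatal day 0. Both thymus lobes were taken from each of 2 pups of 1 pregnancy, with 1 library per pup, replicate 2 from pup 3 and replicate 1 from pup 2. The libraries form 1 group, with no genotype, treatment or sex named that would set them apart, so the comparisons are between genes and between littermates. The organ was not sorted into cell types, so the number of epithelial cells and the amount of miRNA per cell cannot be told apart in any level below.

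A miRNA gene is transcribed into a hairpin, from which a mature strand of about a read's length is cut out of either arm and loaded into an Argonaute protein. The mature strand represses messenger RNAs, mainly by pairing through its seed, bases 2 to 8 from the 5′ end. In mouse skin miR-203 represses the basal cell factor p63 as keratinocytes leave the dividing layer, and miR-205 supports the expansion of skin stem cells. In cultured epithelial cells miR-205 acts together with the miR-200 family against the repressors Zeb1 and Zeb2, which drive loss of epithelial character. The thymus contains an epithelial meshwork related in origin and keratin content to stratified epithelium, and deletion of miR-205 in mouse thymic epithelium weakens the organ's response to inflammatory stress.

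The hairpins are shown because they have the same coordinates as the counted genes, and the capitals mark the annotated mature arms (RefSeq, GRCm38.p6).
Mir205: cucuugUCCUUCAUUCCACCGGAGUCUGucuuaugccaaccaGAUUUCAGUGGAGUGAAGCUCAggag
Mir203: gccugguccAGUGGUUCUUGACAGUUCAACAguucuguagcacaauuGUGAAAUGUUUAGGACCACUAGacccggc

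The mature strands are set side by side to compare their seeds, which are in capitals. The gene counts add both arms of a hairpin, so the share of each arm is not known here. From background knowledge, the 5p arm of Mir205 and the 3p arm of Mir203 are the ones usually credited with function.
miR-205-5p: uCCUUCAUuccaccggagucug
miR-205-3p: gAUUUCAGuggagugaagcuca
miR-203-3p: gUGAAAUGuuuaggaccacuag
miR-203-5p: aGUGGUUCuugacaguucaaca

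The 4 strands are each 22 bases long and their 4 seeds all differ. None of the 4 seeds occurs in any other mature miRNA of the RefSeq mouse table, which holds 1679 distinct mature strands, and neither do bases 2 to 7 alone. A seed of its own is common in that table, where 72.1% of the strands have one. A messenger RNA site that matches the seed would read AUGAAGG for miR-205-5p and CAUUUCA for miR-203-3p. The longest run of bases shared by these 2 strands was 4, and that shared by the hairpins was 6. Thus the 2 genes share an association with stratified epithelium and no seed or long stretch of sequence.

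Both hairpins were unique on their own strand among the hairpins searched, which matters because reads that mapped to several places were tallied apart and not assigned to genes. Of 1004 other hairpins in the RefSeq table, 0 shared 20 bases on the same strand with Mir205 and 0 with Mir203. Among annotated transcripts of GENCODE M21, the mature strands of Mir205 occurred only in Mir205 and its host transcript, and those of Mir203 only in Mir203. No second copy of either gene was thus found among these hairpins and transcripts. Copies elsewhere in the genome, or with mismatches, were not searched for.

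Mir205 (ENSMUSG00000065533.1) lies at chr1:193507463-193507530 on the minus strand of GRCm38 (mm10), within exon 2 of the 2-exon long noncoding RNA 4631405K08Rik, which RefSeq names Mir205hg. The nearest protein-coding genes were Camk1g, 137165 bases to one side, and Plxna2, 1110688 bases to the other, and the nearest other miRNA gene was 1314471 bases away. Mir203 (ENSMUSG00000065574.1) lies at chr12:112130880-112130955 on the plus strand and overlaps no other gene of GENCODE M21. It sits between Aspg, 3321 bases before it, and Kif26a, 15253 bases after it, both on the same strand. The nearest other miRNA gene of GENCODE M21, Mir3073a, lies 21558 bases before Mir203 and had 0 counts in both libraries. Both genes thus stand alone, with 0 other miRNA genes within 10 kb on their strand, as do 134 of the 294 detected genes (45.6%). By contrast, each of the 5 miR-200 genes and each of the 3 genes of the Mir183 cluster has 1 or 2 such neighbours.

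**Figure D1:**
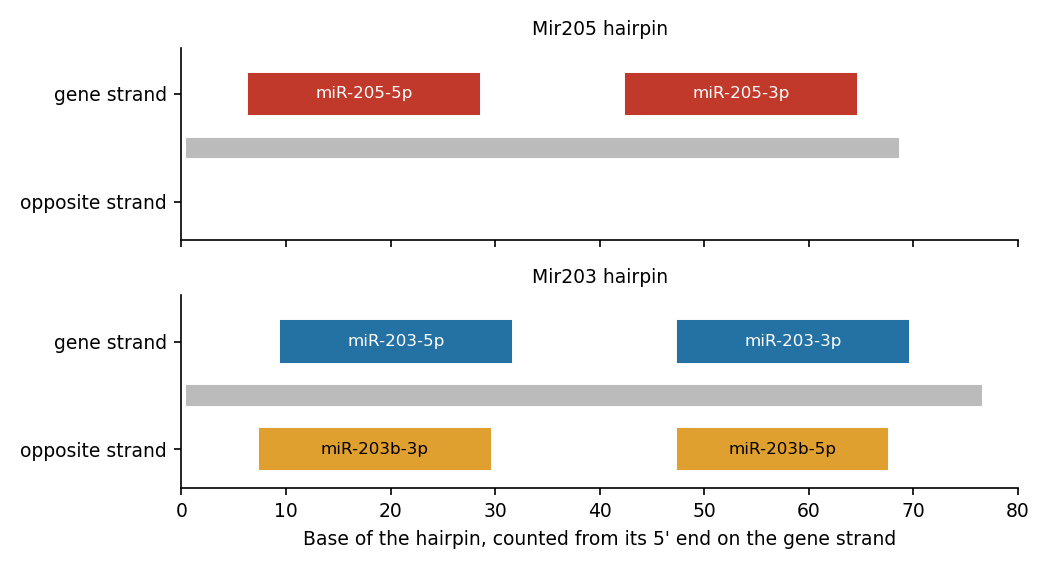
Annotated mature arms along the Mir205 and Mir203 hairpins, with the base counted from the hairpin's 5′ end on the x axis and the strand on the y axis (grey bar, hairpin; red and blue, arms on the gene strand; yellow, arms of miR-203b on the opposite strand). The Mir205 arms span bases 7 to 28 and 43 to 64, the Mir203 arms span bases 10 to 31 and 48 to 69, and the miR-203b arms lie over those of Mir203.

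Replicate 2 held 1289151 counts on the strand of miRNA genes and replicate 1 held 2734133, and the tables covered 4892171 reads of replicate 2 and 10642220 of replicate 1. A gene was treated as detected with at least 10 counts in both libraries, which 294 genes had. Levels are counts per 1000000 gene-strand counts (CPM), and the upper limit for a gene without any count (3 counts) equals 2.33 CPM in replicate 2 and 1.10 CPM in replicate 1. Intervals and limits cover counting error only, since no molecular identifiers are described. A miRNA of thymocytes, Mir181a-1, which sharpens T cell receptor signalling, had 36043 CPM in replicate 2 and 37220 CPM in replicate 1. Reads that mapped to several places are left out of that value, and whether other loci share its mature strands was not tested.

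Mir205 was an abundant miRNA of the newborn thymus. It had 13413 counts in replicate 2 and 25552 in replicate 1. These equal 10405 CPM in replicate 2 (95% Wilson interval 10231 to 10581) and 9346 CPM in replicate 1 (9232 to 9460), a mean of 9875 ± 749 (SD, n = 2). About 1 in 100 counted reads thus came from Mir205, whose share was 0.988% ± 0.0749. It ranked 25 in replicate 2, 31 in replicate 1 and 26 by mean level among the 294 detected genes, with 268 genes below it. Its mean was 41.3 times the median level of the detected genes, 239 CPM. Reads that mapped to several places, 57.5% in replicate 2 and 56.3% in replicate 1, are not in these counts. Shares and ranks therefore hold among assigned reads only, and genes with several copies may be placed too low.

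Mir203 was lower than Mir205 in both libraries and still among the upper detected genes. It had 4393 counts in replicate 2 and 9962 in replicate 1. These equal 3408 CPM in replicate 2 (95% Wilson interval 3309 to 3510) and 3644 CPM in replicate 1 (3573 to 3716), a mean of 3526 ± 167 (SD, n = 2). Its share of the counts was 0.353% ± 0.0167, its rank 58 in replicate 2, 53 in replicate 1 and 56 by mean level, and 238 detected genes lay below it. The mean of Mir203 was 14.7 times the median of the detected genes. Together the 2 genes took 1.38% of the counts in replicate 2 and 1.30% in replicate 1.

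Mir205 exceeded Mir203 in each pup. There were 3.05 Mir205 counts per Mir203 count in replicate 2 (exact 95% interval 2.95 to 3.16) and 2.56 in replicate 1 (2.51 to 2.63), a mean ratio of 2.81 ± 0.345 (SD, n = 2). The 4 mature strands have equal length, so levels were compared without dividing by gene length. Per base of the annotated genes the mean ratio was 3.14 ± 0.386. All ratios between genes are ratios of counts, and how evenly different strands were captured in the libraries was not tested. Over the pups, the mean log2 ratio was 1.48 ± 0.18 (SD, n = 2), with a two-sided exact sign-flip permutation p = 0.5, the smallest that 2 pups allow.

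Several genes lay close in level to Mir205. Next above it were Mir30d at 10175 CPM ± 101, Mir100 at 10991 ± 2111 and Mirlet7b at 11025 ± 268, and next below Mir18, of the miR-17-92 cluster of proliferating cells, at 9689 ± 93.4, Mir181b-2 at 9475 ± 2491 and Mir429 at 9335 ± 730. The ranges over the 2 libraries overlapped that of Mir205 for 5 of these 6 genes, and for Mirlet7b they did not. Compared within each library, Mirlet7b and Mir100 were above Mir205 in both, Mir429 was below it in both, and the order of the other 3 differed between the libraries. Among all 293 other detected genes, 8 overlapped it, including the epithelial miRNAs Mir429 and Mir200c, while 23 lay wholly above and 262 wholly below.

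Mir203 stood in a crowded stretch of the order. Mir449a, a miRNA of multiciliated cells, was next above at 3574 CPM ± 83.9, followed by Mir467c at 3580 ± 400.3 and Mir361 at 3640 ± 257. Next below were Mir155, a miRNA of activated lymphocytes, at 3513 ± 394, Mir149 at 3404 ± 335 and Mir29a at 3283 ± 215. All 6 overlapped Mir203 in range. Within each library, Mir361 was above Mir203 in both, Mir29a was below it in both, and the order of the other 4 differed between the libraries. Of the 293 other detected genes, 10 overlapped it, 49 lay wholly above and 234 wholly below. A nearest level is the only likeness that 2 libraries of 1 group allow.

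Within the list of stratified epithelium miRNAs, Mir205 and Mir203 held nearly all counts. The list also holds Mir31, a miRNA of proliferating and wounded keratinocytes, and Mir184, a miRNA of the corneal epithelium. Mir31 had 735 CPM in replicate 2 and 608 CPM in replicate 1, and Mir205 exceeded it 14.8 ± 0.860 times and Mir203 5.31 ± 0.959 times. Mir184 had 28 counts in replicate 2 and 66 in replicate 1, which equal 21.7 CPM in replicate 2 and 24.1 CPM in replicate 1, and Mir205 exceeded it 433 ± 64.97 times. Mir205 and Mir203 made up 94.8% of the list in replicate 2 and 95.4% in replicate 1. All 4 genes were detected, and they ran in the same order in both pups, Mir205, Mir203, Mir31 and Mir184.

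Against the miRNAs of epithelium in general, Mir205 was at the level of the highest miR-200 genes. The miR-200 family restrains Zeb1 and Zeb2 in simple and stratified epithelium alike. Mir429 had 9851 CPM in replicate 2 and 8819 CPM in replicate 1, and Mir200c had 8209 CPM in replicate 2 and 10400 CPM in replicate 1. Mir205 was thus the highest of the 7 epithelial genes in replicate 2, whereas Mir200c was the highest in replicate 1, and the ranges of these 3 genes overlapped. Mir205 was above Mir429 in both libraries.

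Mir203 fell in the middle of the family. Mir200b averaged 4705 CPM ± 780 and Mir141 2341 ± 94.7, on either side of Mir203 and without overlap in range, and Mir200a averaged 1056 ± 59.2. Of all counts of the 7 epithelial genes, Mir205 took 25.6% in replicate 2 and 23.6% in replicate 1. The share of Mir203 was 8.39% in replicate 2 and 9.19% in replicate 1. Together they made up 33.4% ± 0.871 of the list, whose sum was 4.06% of all counts in replicate 2 and 3.96% in replicate 1.

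The Mir183 cluster, known from sensory epithelium, gave levels between and below the 2 genes. Mir182 averaged 4032 CPM ± 242, which was above Mir203 without overlap in range, and Mir205 exceeded it 2.46 ± 0.333 times. Mir183 averaged 1465 CPM ± 37.4 and Mir96 1311 ± 59.2. Of the 11 other genes in these 3 lists, the mean ratio put 11 below Mir205, and 6 of 11 below Mir203.

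Markers of glandular and gut epithelium were compared with both genes. Mir375, a miRNA of endocrine cells, had 6444 CPM in replicate 2 and 6677 CPM in replicate 1, so Mir205 exceeded it 1.51 ± 0.152 times, and Mir203 had 0.537 ± 0.0119 of its counts. The endocrine list had 4 of 4 genes in the tables, none of them at 0, and summed to 0.672% in replicate 2 and 0.698% in replicate 1. Mir192, a miRNA of intestine and liver, had 262 CPM in replicate 2 and 191 CPM in replicate 1, and the 4 gut genes, none at 0, summed to 0.0410% in replicate 2 and 0.0341% in replicate 1. Reads that mapped to several places are not in these sums, so genes of these lists with several copies may be placed too low. Which cells of the dissected tissue gave the Mir205 and Mir203 reads was not tested.

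**Figure D2:**
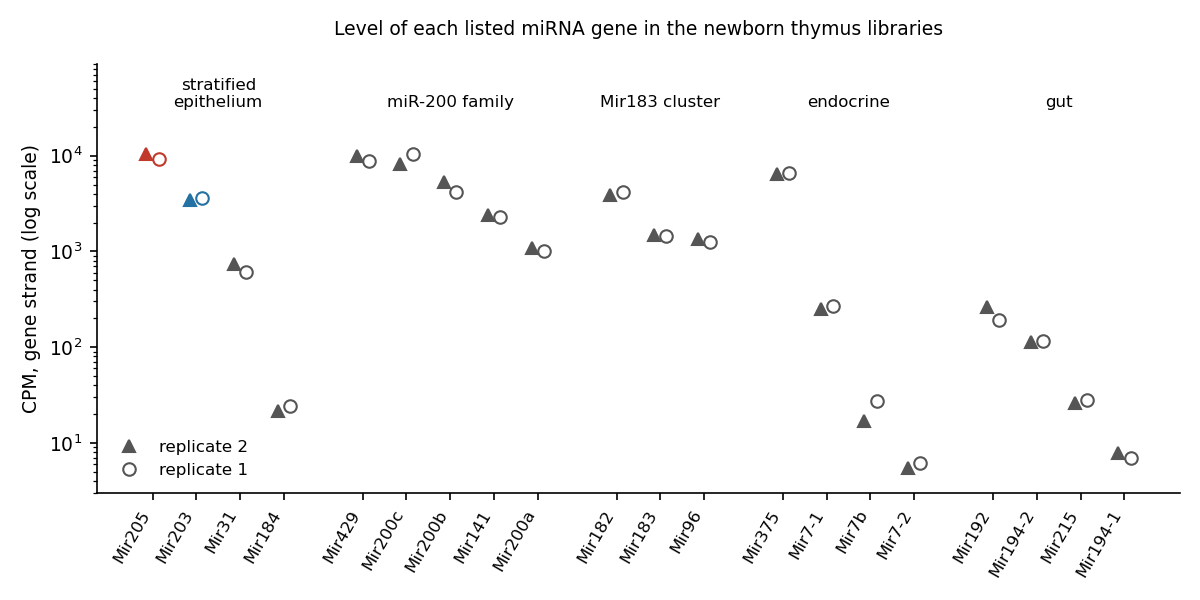
CPM on a log axis for each gene of 5 lists, with replicate 2 as filled triangles and replicate 1 as open circles (red, Mir205; blue, Mir203; grey, other genes). Mir205, at 10405 CPM in replicate 2 and 9346 CPM in replicate 1, lies level with Mir429 and Mir200c, and Mir203, at 3408 CPM in replicate 2 and 3644 CPM in replicate 1, lies between Mir200b and Mir141.

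The 2 littermates differed little in either gene, and in opposite directions. With libraries scaled by TMM (trimmed mean of M values), Mir205 was higher in replicate 2 by a log2 ratio of 0.089 (exact 95% interval 0.058 to 0.12), and the exact binomial test gave an adjusted p = 4.27e-08. Mir203 was lower in replicate 2, with a log2 ratio of -0.16 (-0.21 to -0.11) and an adjusted p = 1.76e-09 in the same exact test. Both genes thus passed at an adjusted p under 0.05, as did 43.5% of the 294 genes tested, with 20.1% higher and 23.5% lower in replicate 2, so a call is common at this depth. Scaled to total counts in place of TMM, 72 genes were higher and 52 lower, against 59 and 69 with TMM. This test compares 2 libraries by counting error only and says nothing of the spread over pups.

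In size, both differences were below the median of the detected genes, and that of Mir203 lay nearer to the median. Genes with few counts are among those compared, and their ratios carry more counting error. The median absolute log2 ratio of the detected genes was 0.21, and 224 genes were farther from 0 than Mir205 and 169 farther than Mir203. The spread between libraries beyond counting error, the biological coefficient of variation over all detected genes, was 0.154. With that spread in edgeR's negative binomial exact test, neither gene passed (adjusted p = 1.0 for both, unadjusted p = 0.779 for Mir205 and 0.607 for Mir203), where 0.34% of the genes passed. That spread was estimated from the same 2 libraries, which leaves no replicate check.

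Because scaling cancels within a library, the ratio of Mir205 to Mir203 can be compared between pups without it. The ratio was 1.19 times as high in replicate 2 as in replicate 1 (exact 95% interval 1.14 to 1.24, two-sided Fisher's exact p = 8.46e-17), a log2 change of 0.25. Among all 43071 pairs of detected genes, 59.4% changed more than this in their ratio, with a median absolute log2 change of 0.32. The shift between the 2 genes is therefore larger than counting error and smaller than that of most pairs of miRNA genes in these libraries. Pairs that include genes with few counts are among those compared, and their ratios carry more counting error.

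Related genes were called in both directions, at a background of 20.1% higher and 23.5% lower over all detected genes. Of the 5 miR-200 genes, 2 were higher in replicate 2 (Mir200b, log2 ratio 0.27, and Mir429, 0.093), 1 was lower (Mir200c, -0.41) and 2 did not pass, with a median of 0.048 against -0.030 over all detected genes. Of the Mir183 cluster, 1 of 3 was lower (Mir182, -0.19) and 2 did not pass. In the stratified epithelium list, Mir31 (0.21) was higher beside Mir205, and Mir184 (-0.22) did not pass. By edgeR's negative binomial exact test, 0 genes of these 3 lists passed, and the lowest unadjusted p was 0.197, for Mir200c. The sums by marker list were 6.06% in replicate 2 and 4.57% in replicate 1 for 6 of 6 mesenchymal genes. Most of that sum was Mir143, at 57301 CPM in replicate 2 and 42989 CPM in replicate 1. By the exact binomial test, 2 of the 5 detected mesenchymal genes were higher in replicate 2, 0 lower and 3 not called. The endothelial gene Mir126a took 3.73% in replicate 2 and 2.80% in replicate 1. For 7 of 8 thymocyte and leukocyte genes the sum was 5.27% in replicate 2 and 5.76% in replicate 1, with 2 genes higher and 5 lower. None of these genes was at 0. The striated muscle list, with 9 of 10 genes in the tables, summed to 0.0747% in replicate 2 and 0.0492% in replicate 1, with Mir1a-1, Mir133a-1 and Mir133a-2 at 0 in both. Reads that mapped to several places were not assigned to genes, so a count of 0 does not show that a mature strand was absent. Of its heart miRNAs, Mir208b had 238 counts in replicate 2 and 60 in replicate 1, and Mir208a had 105 in replicate 2 and 6 in replicate 1. Mir499 was also higher in replicate 2, at 34.1 CPM against 11.7 CPM in replicate 1. In contrast, Mir133b (3.10 CPM in replicate 2, 6.95 in replicate 1) and Mir1b (1.55 in replicate 2, 4.02 in replicate 1) were lower in replicate 2. Mir208a, Mir133b and Mir1b had under 10 counts in a library and were not tested. Mir208b (log2 ratio 3.01) was the gene that passed the negative binomial test, whereas the skeletal muscle miRNA Mir206 had 570 counts in replicate 2 and 1217 in replicate 1 and did not pass either test. The part of these lists in the differences of Mir205 and Mir203 was not tested.

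Mir205 kept a nearly fixed ratio to one gene, Mir429, which lies on chromosome 4 in the Mir200b cluster. There were 1.06 Mir205 counts per Mir429 count in replicate 2 (exact 95% interval 1.03 to 1.08) and 1.06 in replicate 1 (1.04 to 1.08). This was the smallest change among its ratios to the 11 related genes, and the largest was that to Mir200c, a log2 change of 0.50. Mir203 stayed closest to Mir182, with 0.882 Mir203 counts per Mir182 count in replicate 2 and 0.867 in replicate 1, and moved most against Mir200b, by a log2 change of -0.44. These genes were singled out after their values were seen, and 2 libraries cannot show that genes vary together.

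**Figure D3:**
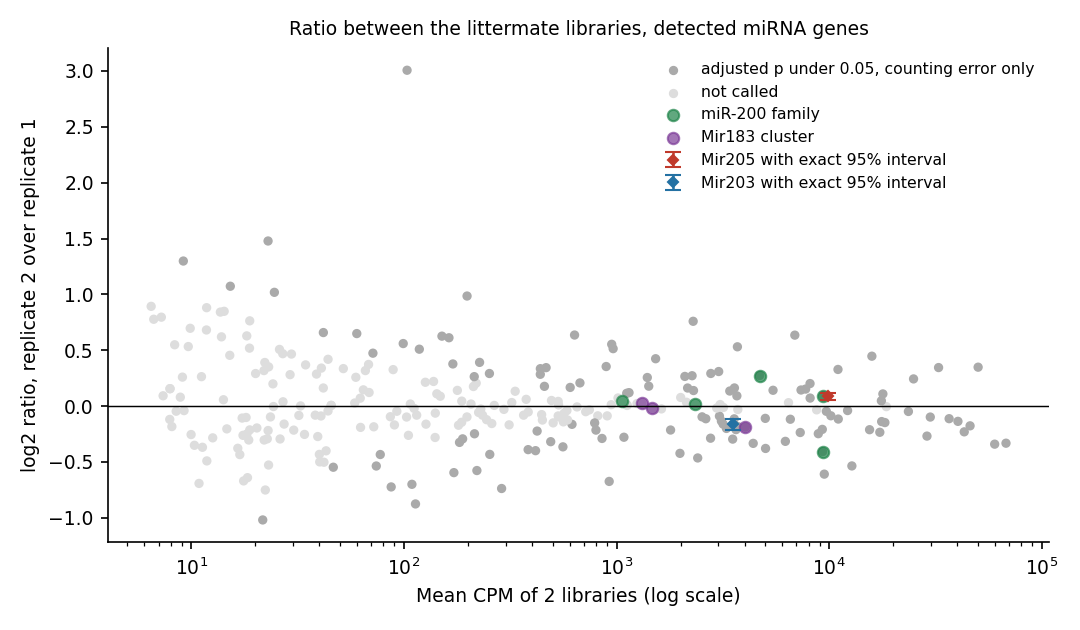
The log2 ratio of replicate 2 over replicate 1 (TMM scaled) against mean CPM on a log axis, for the 294 detected genes (dark grey, adjusted p under 0.05 by counting error; light grey, not called), the miR-200 family in green and the Mir183 cluster in purple. Mir205 (red, 0.089) and Mir203 (blue, -0.16), drawn with exact 95% intervals, lie on either side of 0 inside the cloud of other genes.

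The opposite strand of the 2 hairpins differed in annotation and in counts. RefSeq places a further miRNA gene, Gm51289 (mmu-mir-203b), over Mir203 at chr12:112130887-112130946 on the minus strand. Its mature strands are shown with their seeds in capitals, because each is the reverse complement of a stretch of the Mir203 hairpin and has a seed that none of the strands above carries.
miR-203b-5p: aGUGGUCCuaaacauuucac
miR-203b-3p: uUGAACUGucaagaaccacugg

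All 20 bases of miR-203b-5p lie opposite miR-203-3p, and 20 of the 22 bases of miR-203b-3p lie opposite miR-203-5p. On that strand Mir203 had 5 counts in replicate 2 and 9 in replicate 1, which was 0.114% of both strands in replicate 2 (exact Clopper-Pearson 95% interval 0.0369 to 0.265) and 0.0903% in replicate 1 (0.0413 to 0.171). Mir205 had 0 opposite-strand counts of 13413 in replicate 2, which allows a share of up to 0.0224%, and 1 of 25553 in replicate 1. Over all 1973 identifiers, 14.3% of the both-strand counts in replicate 2 and 14.6% in replicate 1 lay on the opposite strand. Detection was set on the gene strand, which leaves out genes read mainly on the other strand. Of the 294 genes detected in that way, 272 had 0 opposite-strand counts in both libraries and 3 had over 3 in both. Those 3 were Mir203, Mir126a and Mir3074-1. Counting both strands therefore left the Mir205 and Mir203 counts nearly as they were, while the library totals grew and the CPM of both genes came out lower.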

How the data were processed

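The authors deposited 1 table of raw read counts per library, not pooled or normalized, made on mm10 with GENCODE annotation M4, as text files deposited beside the tables state. Which aligner and counter were run is not given in the sources used here. A table has 3 columns of counts: both strands, the gene strand (used here, larger total) and the opposite strand, as the values show. Unmapped reads (9.17% in replicate 2, 10.6% in replicate 1), multimapping reads (57.5% in replicate 2, 56.3% in replicate 1) and reads outside miRNA genes (2.57% in replicate 2, 2.99% in replicate 1) stayed out of library sizes and tests. Of 1973 identifiers, 1894 matched GENCODE M21, the source of symbols and GRCm38 coordinates. Sequences come from RefSeq (GRCm38.p6).

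CPM, TMM scaling (edgeR 4.0.16, R 4.3.3) and a two-sided exact binomial test of replicate 2 over replicate 1, with Benjamini-Hochberg adjustment over 294 genes at 0.05 (scipy 1.17.1, Python 3.11.15), were computed on all genes. The test was checked on simulated counts that varied by counting error only, so the check does not cover spread between libraries. One library against one leaves no residual degrees of freedom, so a quasi-likelihood fit was not possible. Named genes are the 2 members, genes at or next to their loci, the 3 nearest in level on each side, and listed epithelial, endocrine and gut miRNAs. Also named are genes of the thymocyte and leukocyte, mesenchymal, endothelial and striated muscle lists. The most abundant gene and the detected genes with over 3 opposite-strand counts in both libraries are named as well. Members and lists were chosen with earlier results of these data known, and the test over pups and the order within each library were added after the values were seen. Alternatives were the both-strand column, minimums of 1 or 100 counts, DESeq2 1.42.0 size factors, total counts, a negative binomial test, leaving out the most abundant gene, counts per base and each library alone.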

Additional observations from a re-analysis of the deposited data

Results flagged for a closer look

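Counts on the strand opposite to Mir203 were flagged because they numbered over 3 in both libraries, in data outside the gene-strand measurement. That threshold is the upper limit for a gene without any count, and the level of stray opposite-strand counts was not estimated. There were 5 such counts in replicate 2 and 9 in replicate 1, on the strand where mmu-mir-203b is annotated. They equal 3.32 counts per 1000000 both-strand counts in replicate 2 and 2.81 in replicate 1, and 8 of the 294 detected genes had a higher mean share of opposite-strand counts. Which of the annotated strands these reads match was not tested.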

How the results depend on the processing

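Mir205 stayed higher and Mir203 lower in replicate 2 in all 8 alternatives to the TMM-scaled binomial test, with log2 ratios of 0.070 to 0.15 for Mir205 and -0.18 to -0.097 for Mir203. Both passed in the 7 that used the exact binomial test (highest adjusted exact p = 4.18e-05 for Mir205 and 0.000653 for Mir203) and in the negative binomial test neither did (log2 ratio 0.089 for Mir205 and -0.16 for Mir203, adjusted p = 1.0 for both). That test called 1 gene higher and 0 lower in replicate 2, with 15 at an unadjusted p under 0.05, against 142 by the exact binomial test. Mean levels depend on the denominator. Counting both strands gave 8446 CPM for Mir205 and 3018 CPM for Mir203, and leaving Mirlet7g out of the denominator gave 3783 CPM for Mir203. Each library alone gave 9346 to 10405 CPM for Mir205, 3408 to 3644 CPM for Mir203, a Mir205 to Mir203 ratio of 2.56 to 3.05 and a share of the epithelial list of 32.8% to 34.0%. The biological coefficient of variation was 0.151 with both strands, 0.179 with at least 1 count in both libraries and 0.130 with at least 100. No paired analysis was possible because both libraries belong to 1 group. At these depths counting error is small for both genes, and the number of pups limits the precision.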
